A study of Homo sapiens with 6 samples.

Results

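NF-kB subunits, their inhibitors and the genes through which NF-kB feeds back on itself were followed as 10 genes across 6 RNA-seq libraries of the human prostate cancer line 22Rv1. The genes were matched by name, from a list drawn up with earlier results of these data known. They were the subunit genes NFKB1, NFKB2, RELA and RELB, the inhibitor genes NFKBIA, NFKBIB and NFKBIE, and the targets TNFAIP3, BIRC3 and CXCL8. All 10 were among the 20297 genes of the table. Cells received vehicle, Drug_0120 (0120-0018 in the treatment protocol) or Drug_CN27, both described as inhibitors of H1-10, a linker histone, and each group had 2 libraries of polyadenylated RNA. The solvent of the vehicle is not named in the labels. Each compound was used at its own IC50. Neither concentrations nor durations were given in the sources used here, and whether the doses match is unknown. The study used a single cell line. Nothing says that replicates came from separate cultures, so the p-values reflect no more than the spread between these libraries, which could be technical.

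NF-kB is a family of dimeric transcription factors that cells use to respond to cytokines, microbial products and DNA damage. In resting cells, inhibitor proteins of the IkB family (the products of NFKBIA, NFKBIB and NFKBIE) hold most dimers in the cytoplasm, and a kinase complex releases them by marking the inhibitor for destruction. The freed dimers switch on inflammatory and survival genes together with their own brakes, among them NFKBIA and TNFAIP3. In prostate cancer, NF-kB has been studied for its links to inflammation and cell survival. The measurements here are of mRNA, and neither the proteins nor their place in the cell was measured.

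Promoters of NF-kB targets often carry kappaB motifs, the short sequences that NF-kB dimers can bind, and those of the members are shown because the members include textbook targets of the factor itself. RefSeq windows on GRCh38.p14, from 250 bases before to 50 bases after a start, were matched by symbol for 8 of the 10 genes, with 13 windows in all. RELB and NFKBIE had no entry. Both strands were searched for the 10-base kappaB consensus and for the 9-base form GGNNTTNCC, which overlap each other at many matches. At least 1 of the motifs was found in 7 of the 8 genes, against 27.7% of the 27305 genes in the reference. By window, the count was 8 of 13 for these genes, against 24.3% of 35116 windows. The consensus alone was found in 6 of the 8 genes against 13.25%, and the 9-base form in 7 of 8 against 20.1%. No match was found in either window of RELA. Each line below gives 60 bases upstream of a start, 5′ to 3′ in the direction of the gene, with the matched bases in capitals; a match is a description of the letters and not evidence of binding in these cells.
NFKB1, chr4:102501286-102501345, plus strand: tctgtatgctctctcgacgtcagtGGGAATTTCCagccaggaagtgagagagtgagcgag
NFKB2, middle start of 3, chr10:102394461-102394520, plus strand: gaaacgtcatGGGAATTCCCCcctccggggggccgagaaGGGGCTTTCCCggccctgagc
NFKB2, last start of 3, chr10:102395645-102395704, plus strand: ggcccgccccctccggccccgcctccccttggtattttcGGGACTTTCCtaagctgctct
NFKBIA, chr14:35404796-35404855, minus strand: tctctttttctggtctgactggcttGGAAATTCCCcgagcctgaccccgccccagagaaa
NFKBIB, downstream start, chr19:38899909-38899968, plus strand: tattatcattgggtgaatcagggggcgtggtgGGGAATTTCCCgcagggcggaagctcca
TNFAIP3, chr6:137867173-137867232, plus strand: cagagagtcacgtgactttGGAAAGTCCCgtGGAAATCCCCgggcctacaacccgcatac
BIRC3, chr11:102317324-102317383, plus strand: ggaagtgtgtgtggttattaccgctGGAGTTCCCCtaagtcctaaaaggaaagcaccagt
CXCL8, chr4:73740453-73740512, plus strand: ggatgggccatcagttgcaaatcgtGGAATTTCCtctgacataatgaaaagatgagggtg
The printed lines of NFKB2 at the middle start and of TNFAIP3 each hold a pair of separate matched blocks. Where upstream matches spread over more than 60 bases, the line was placed around the match nearest the start. Further upstream matches lie outside the lines of NFKB1, NFKB2 at its last start, NFKBIA and BIRC3. For NFKBIB, further matches lie after the start. The CXCL8 window holds a match to the 9-base form and none to the consensus.

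Levels are in transcripts per 1000000 (TPM), the authors' unit, which is scaled by transcript length and by the total of each library. Genes outside the table held 18.7% ± 0.831 (SD, n = 2) of all TPM in vehicle, 28.4% ± 0.605 with Drug_0120 and 18.9% ± 0.859 with Drug_CN27. Over the 13606 tested genes, the correlation of replicates was 0.996 in vehicle, 0.996 with Drug_0120 and 0.994 with Drug_CN27. The depth of the libraries is unknown, since TPM keeps none. The prostate line markers, which include KLK3 and HOXB13, had 9 of 9 genes at a mean of at least 1 TPM in vehicle and with Drug_CN27 and 8 of 9 with Drug_0120, where KLK3 was below 1 TPM. Their summed level was 2442 to 2489 TPM in vehicle, 1624 to 1625 TPM with Drug_0120 and 2572 to 2591 TPM with Drug_CN27. Leukocyte markers, of interest because NF-kB genes are abundant in leukocytes, summed to 2.72 to 3.67 TPM in vehicle, 3.96 to 4.84 TPM with Drug_0120 and 3.22 to 3.41 TPM with Drug_CN27. A mean of at least 1 TPM was reached by 1 of 10 in each group, the monocyte marker CD14 in vehicle and with Drug_CN27 and the macrophage lysosomal marker CD68 with Drug_0120. CD68 was at 0.570 and 0.669 TPM in vehicle, at 0.309 and 0.397 TPM with Drug_CN27 and at 2.80 and 2.16 TPM with Drug_0120. Its log2 change with Drug_0120 was 1.10 (limma, adjusted p = 3.35e-05). CD68 reached 1 TPM in the Drug_0120 libraries alone and so entered the test only through the group where it was high. Its rise stands beside those of RELB, RELA and BIRC3 given below, and its part in them was not tested. Of the other leukocyte markers, the T cell and B cell markers CD3E and MS4A1 were at 0 in every library, and PTPRC, the pan-leukocyte CD45 gene, was at most 0.321 TPM. Of the fibroblast and endothelial markers, 9 of 10 were used. They summed to 34.6 to 35.6 TPM in vehicle, 30.1 to 31.3 TPM with Drug_0120 and 28.7 to 30.3 TPM with Drug_CN27. CDH5 was at 0 throughout and VWF at most at 0.0124 TPM, while in vehicle ESAM was at 2.08 and 2.77 TPM and LUM at 22.7 and 20.6 TPM. Within that list DCN and COL3A1, a matrix proteoglycan and a fibrillar collagen, fell with both compounds (DCN by 1.52 and 1.45, COL3A1 by 1.31 and 1.39 on the log2 scale). Both reached 1 TPM in the vehicle libraries alone and so entered the test only through the group where they were high. With Drug_0120, LUM changed by 0.08 and COL1A1 by -0.21, neither called, and ESAM by -0.59. With Drug_CN27, LUM changed by -0.54, COL1A1 by 0.69 and ESAM by 0.28 (not called). In bulk RNA, fewer cells with a transcript and less transcript per cell cannot be told apart.

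In vehicle, RELA and NFKB2 were the most abundant of the 10 genes, at 66.7 ± 0.879 TPM and 66.6 ± 2.05 TPM (mean ± SD, n = 2 libraries, here and for all means), and their libraries overlapped. NFKBIA followed at 54.2 ± 0.116 TPM, NFKBIB at 45.3 ± 4.30 TPM, NFKB1 at 14.9 ± 0.545 TPM and NFKBIE at 10.1 ± 0.966 TPM. RELB at 1.73 ± 0.200 TPM, TNFAIP3 at 1.20 ± 0.0240 TPM and BIRC3 at 1.03 ± 0.0572 TPM were near the limit used for testing, and CXCL8 was lowest at 0.0684 ± 0.0509 TPM. Apart from RELA and NFKB2, neighbours in this order had libraries that did not overlap. With Drug_0120 the order changed in the lower part: RELB stood above NFKBIE, and BIRC3 and CXCL8 stood above TNFAIP3, with no overlap between neighbours. With Drug_CN27, NFKBIA moved up to the level of RELA, with overlapping libraries, and BIRC3 stood above TNFAIP3.

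**Figure D1:**
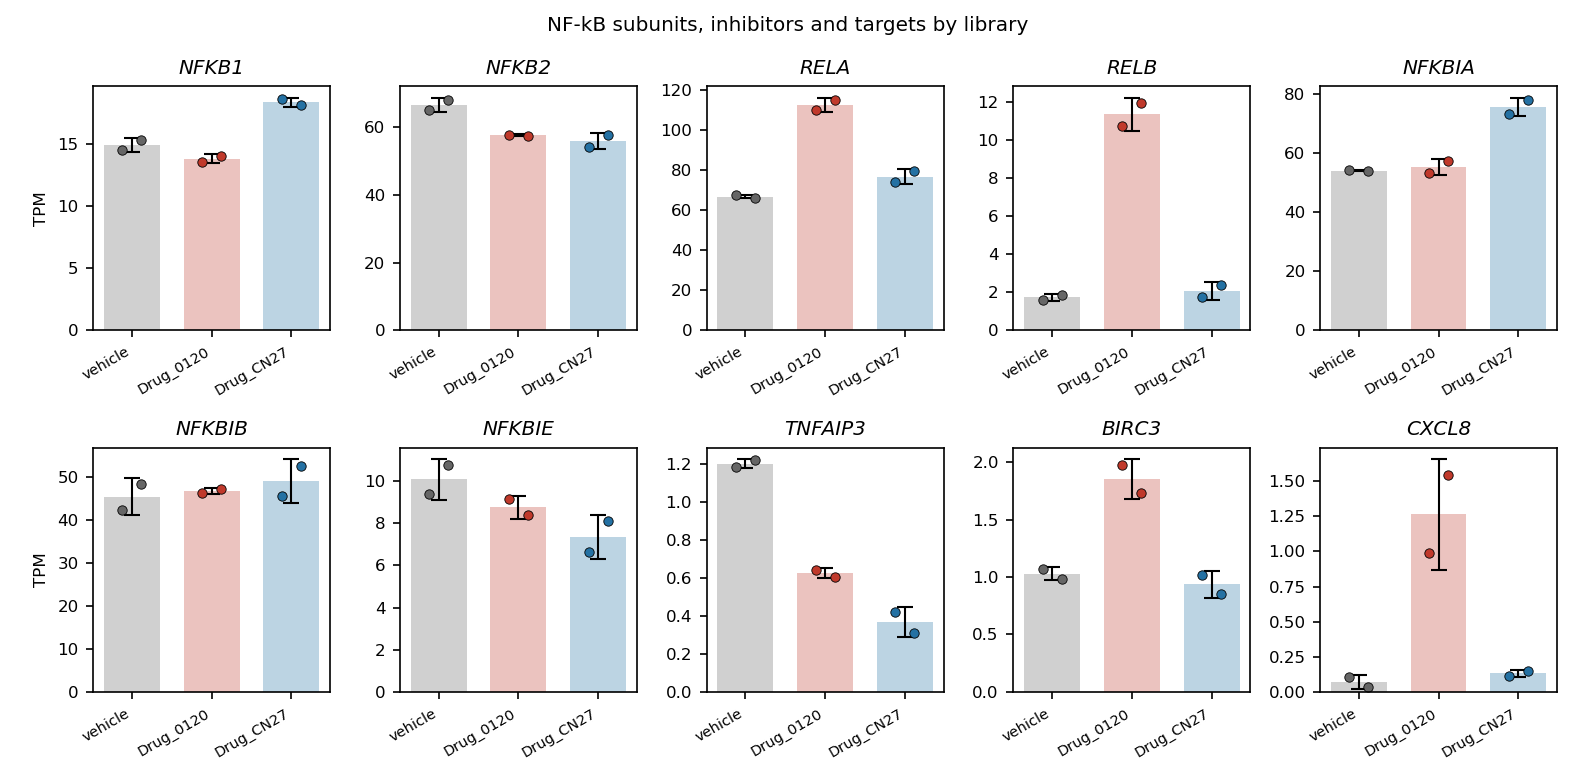
TPM of the 10 genes in each library by group (points are libraries, bars are the mean of 2). RELB lies at 10.7 and 12.0 TPM in the Drug_0120 libraries and at 2.40 TPM or less in the other libraries, while TNFAIP3 is highest in both vehicle libraries.

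The first comparison asks how the 10 genes differed between Drug_0120 and vehicle. RELB and RELA, which encode the subunits with transcription activation domains in this set, rose, as did BIRC3, while TNFAIP3 and NFKB2 fell. None of the 3 inhibitor genes passed the test. Of the 9 genes tested, 3 were called higher and 2 lower by limma at a Benjamini-Hochberg adjusted p under 0.05, and 4 were not called. Over all 13606 tested genes, 81.5% were called, 36.0% higher and 45.5% lower, so being called sets no gene apart here. With table sums set equal, 52.2% of the calls were higher, and under quantile normalization 52.6%, against 44.2% in the main test. Changes are on the log2(TPM + 1) scale with the SE of the limma fit, which understates changes of low genes such as RELB, TNFAIP3 and BIRC3. The median change of the 9 genes was 0.03, against -0.10 over all tested genes.

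RELB encodes the subunit that pairs with the processed product of NFKB2 in the slower, noncanonical branch of the pathway. Its level was 1.59 and 1.87 TPM in vehicle and 10.7 and 12.0 TPM with Drug_0120. Both treated libraries lay well above both vehicle libraries, a 6.56-fold ratio of mean TPM. The log2 change was 2.18 ± 0.13 (95% interval 1.88 to 2.47, adjusted p = 6.75e-07). RELA encodes the main activating subunit of the canonical branch. It was at 67.3 and 66.1 TPM in vehicle and at 110 and 115 TPM with Drug_0120. The groups did not overlap, and the log2 change was 0.74 ± 0.06 (interval 0.60 to 0.89, adjusted p = 5.14e-06). With table sums set equal, which removes the larger share outside the table with Drug_0120, the changes were 2.43 for RELB and 0.93 for RELA. Exons of RELA overlap a long non-coding RNA on the other strand in GENCODE release 29, and without a stated strand setting their reads cannot be told apart.

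NFKB1 and NFKB2 encode precursor proteins that are trimmed to the DNA-binding subunits without activation domains. NFKB2 was at 65.2 and 68.1 TPM in vehicle and at 57.7 and 57.4 TPM with Drug_0120. Both treated libraries were the lower ones, and the log2 change was -0.21 ± 0.06 (interval -0.35 to -0.06, adjusted p = 0.0135). This small fall was lost without vehicle replicate 2 (adjusted p = 0.106), Drug_0120 replicate 1 (0.0582) or Drug_0120 replicate 2 (0.0653), and under 3 other scalings; after a correction for transcript GC content it turned to a rise of 0.17 (adjusted p = 0.00623). Over the 17 alternatives its adjusted p ran from 0.00403 to 0.694. NFKB1 was at 14.5 and 15.3 TPM in vehicle and at 13.6 and 14.1 TPM with Drug_0120. Its libraries did not overlap, but the log2 difference of -0.10 ± 0.08 did not pass the test (adjusted p = 0.240). After the GC correction NFKB1 was called lower, at a change of -0.29.

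The IkB genes encode the proteins that hold dimers in the cytoplasm, and NFKBIA is the member resynthesised fastest after activation. NFKBIA was at 54.2 and 54.1 TPM in vehicle and at 53.3 and 57.2 TPM with Drug_0120. The groups overlapped, and the interval of the difference was -0.12 to 0.18. NFKBIB was at 42.3 and 48.4 TPM in vehicle and 46.3 and 47.1 TPM with Drug_0120, also overlapping, with an interval of -0.16 to 0.25. NFKBIE was at 9.40 and 10.8 TPM in vehicle and 9.14 and 8.38 TPM with Drug_0120. Its treated libraries were the lower ones, with an interval of -0.45 to 0.09 that includes no change. With table sums set equal or after the GC correction, NFKBIA and NFKBIB were both called higher. Exons of NFKBIB overlap SIRT2 on the other strand.

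TNFAIP3 encodes A20, a ubiquitin-editing enzyme that shuts down signalling to the kinase complex. It was at 1.18 and 1.22 TPM in vehicle and at 0.643 and 0.605 TPM with Drug_0120. Both vehicle libraries were the higher ones, and the log2 change was -0.44 ± 0.10 (interval -0.67 to -0.21, adjusted p = 0.0035). TNFAIP3 reached 1 TPM in the vehicle libraries alone and so entered the test only through the group where it was high. Under quantile normalization its change was -0.18 and not called (adjusted p = 0.131, the highest of 16 alternatives that began at 0.000912), and its exons overlap an antisense RNA. BIRC3 encodes cIAP2, a ubiquitin ligase of tumour necrosis factor receptor complexes. It was at 1.07 and 0.987 TPM in vehicle and at 1.98 and 1.73 TPM with Drug_0120. The groups did not overlap, and the log2 change was 0.49 ± 0.11 (interval 0.25 to 0.74, adjusted p = 0.00232). After the GC correction the change was 0.19 and not called (adjusted p = 0.0906, in a range of 0.000137 to 0.102 over 16 alternatives); the transcript GC content of BIRC3 was 38.7%, against 49.3% to 64.5% for the other tested members.

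CXCL8 encodes interleukin-8, a chemokine that draws neutrophils. It was at 0.104 and 0.0324 TPM in vehicle and at 0.986 and 1.54 TPM with Drug_0120. Both Drug_0120 libraries lay above all other libraries, but only 1 library reached 1 TPM, so the gene was outside the main test. In the fit with no filter on low values its log2 change was 1.07 ± 0.12 (adjusted p = 0.000421).

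The second comparison asks how the same genes differed between Drug_CN27 and vehicle, and it shares its vehicle libraries with the first. NFKBIA, NFKB1 and RELA rose, while TNFAIP3, NFKBIE and NFKB2 fell. RELB, NFKBIB and BIRC3 were not called. The 3 higher and 3 lower calls among 9 tested genes stand beside 70.4% of all tested genes called, 43.7% higher and 26.6% lower. The median change was 0.11 for the 9 genes and 0.15 for all tested genes. Of all calls, 62.1% were higher, against 48.4% under median-of-ratios scaling and 52.2% under quantile normalization, so the split between higher and lower calls depends on the scaling.

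NFKBIA was at 73.4 and 77.9 TPM with Drug_CN27, above both vehicle libraries. Its log2 change was 0.47 ± 0.06 (interval 0.33 to 0.62, adjusted p = 0.000232), or 0.32 relative to the median of all tested genes, and it was called under all 17 alternatives tried. NFKB1 was at 18.6 and 18.1 TPM, above both vehicle libraries, with a log2 change of 0.28 ± 0.08 (adjusted p = 0.0105). This call was lost under median-of-ratios scaling (adjusted p = 0.224), quantile normalization (0.218) and without vehicle replicate 1 (0.0792), in a range of 0.00497 to 0.224 over 17 alternatives. RELA was at 74.1 and 79.3 TPM, above both vehicle libraries, with a log2 change of 0.20 ± 0.06 (adjusted p = 0.0181). Relative to the median of all tested genes the RELA change was 0.05. The call was lost under median-of-ratios scaling (change 0.02, adjusted p = 0.796) and without vehicle replicate 1 (0.0631), vehicle replicate 2 or Drug_CN27 replicate 2 (0.0662), and the lowest adjusted p of the 17 alternatives was 0.000186.

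TNFAIP3 was at 0.423 and 0.311 TPM with Drug_CN27, below every vehicle and Drug_0120 library. Its log2 change was -0.69 ± 0.10 (interval -0.92 to -0.46, adjusted p = 0.000374), a 3.28-fold ratio of vehicle to treated mean TPM, though here too the gene entered the test only through the vehicle libraries, where it was high. NFKBIE was at 6.62 and 8.11 TPM, below both vehicle libraries, with a log2 change of -0.41 ± 0.12 (adjusted p = 0.0124). Its call was lost without vehicle replicate 2 (adjusted p = 0.0808) or Drug_CN27 replicate 1 (0.0865) and with the replicate block and GC correction (-0.24, adjusted p = 0.0565), in a range of 0.00239 to 0.0865 over 17 alternatives. NFKB2 was at 54.1 and 57.6 TPM, below both vehicle libraries, with a log2 change of -0.25 ± 0.06 (adjusted p = 0.00655). The NFKB2 call was lost after the GC correction (adjusted p = 0.183) and without vehicle replicate 2 (0.0614), in a range of 0.000645 to 0.183 over 17 alternatives.

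RELB was at 1.74 and 2.40 TPM with Drug_CN27, overlapping vehicle, and the interval of the difference was -0.13 to 0.46 (adjusted p = 0.289). BIRC3 was at 1.02 and 0.854 TPM, also overlapping vehicle, with an interval of -0.31 to 0.18. NFKBIB, at 45.5 and 52.6 TPM, overlapped vehicle too. After the GC correction RELB and NFKBIB were called higher and BIRC3 lower. CXCL8 was at 0.113 and 0.148 TPM, above both vehicle libraries but near 0, and with no filter on low values its difference of 0.08 was not called (adjusted p = 0.606).

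**Figure D2:**
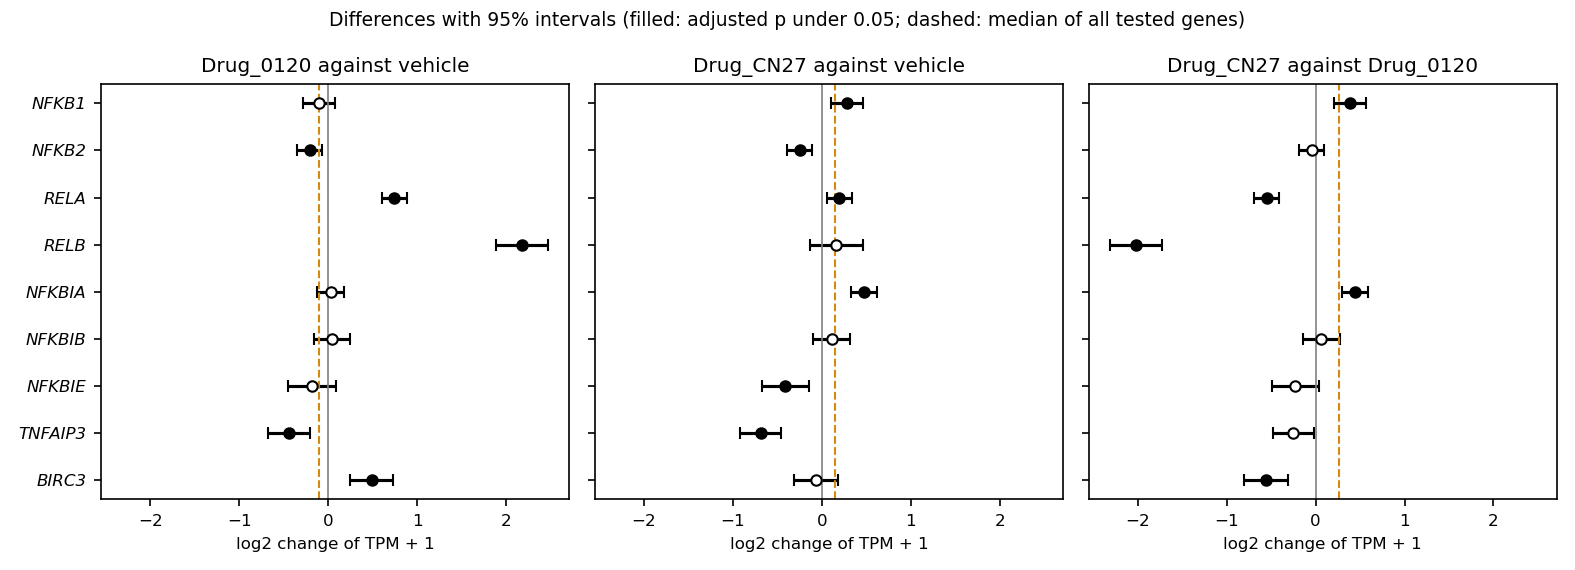
Change on the log2(TPM + 1) scale from limma for the 9 tested genes in the 3 comparisons (points are estimates, lines are 95% intervals, dashed lines are the median of all tested genes). RELB stands at 2.18 with Drug_0120 and at 0.16 with Drug_CN27, and NFKBIA at 0.03 and 0.47.

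The direct comparison of the compounds asks whether these responses differed. Set against Drug_0120, Drug_CN27 libraries were lower in RELB, RELA and BIRC3 and higher in NFKBIA and NFKB1. These 2 higher and 3 lower calls of 9 stand beside 75.2% of all tested genes called, 51.7% higher and 23.5% lower, with a median of -0.23 for the 9 genes and 0.26 for all tested genes. The RELB difference was -2.02 ± 0.13 (adjusted p = 1.84e-06), the RELA difference -0.55 ± 0.06 (adjusted p = 5.22e-05) and the BIRC3 difference -0.56 ± 0.11 (adjusted p = 0.00129). For each of these genes both Drug_0120 libraries lay above both Drug_CN27 libraries, and all 3 calls held in every alternative that could test them. The NFKBIA difference was 0.45 ± 0.06 (adjusted p = 0.000254) and the NFKB1 difference 0.39 ± 0.08 (adjusted p = 0.00177), both with groups apart. Under median-of-ratios scaling neither was called (adjusted p = 0.0876 for NFKBIA and 0.255 for NFKB1). Over 17 alternatives the adjusted p began at 0.000142 for NFKBIA and ran from 0.000141 to 0.282 for NFKB1. TNFAIP3 differed by -0.25 ± 0.10 (interval -0.48 to -0.02, adjusted p = 0.0517), which did not pass the threshold, and it was called in 8 of 16 alternatives. The differences were -0.04 for NFKB2, 0.07 for NFKBIB and -0.23 for NFKBIE, and none was called. Under alternatives, NFKB2 was called lower in 5 of 17 (to -0.34), NFKBIE in 6 of 17 (to -0.63, and without Drug_CN27 replicate 2 at -0.36), and NFKBIB in 2 of 17 (at -0.16, after the GC correction). In the fit with no filter on low values, CXCL8 was lower with Drug_CN27 by a log2 difference of -0.99 (adjusted p = 0.000779). Of all calls in this comparison 68.7% were higher, against 49.3% under median-of-ratios scaling, 57.7% with table sums set equal and 49.0% under quantile normalization.

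The makeup of the subunit and inhibitor transcripts can be read from the same TPM values, as a description with no test. The 4 subunit genes together held 150 ± 1.92 TPM in vehicle, 195 ± 4.69 TPM with Drug_0120 and 153 ± 6.26 TPM with Drug_CN27. RELB made up 1.15% of that sum in vehicle, 5.82% with Drug_0120 and 1.35% with Drug_CN27. RELA made up 44.5%, 57.6% and 50.1%, and NFKB2 44.4%, 29.5% and 36.5%, in the same order of groups. The 3 inhibitor genes together held 110 ± 5.15 TPM in vehicle, 111 ± 2.85 TPM with Drug_0120 and 132 ± 9.30 TPM with Drug_CN27, of which NFKBIA made up 49.5%, 49.9% and 57.4%. The ratio of subunit to inhibitor transcripts was 1.40 and 1.34 in the vehicle libraries, 1.76 and 1.76 with Drug_0120 and 1.18 and 1.14 with Drug_CN27. The libraries of the 3 groups did not overlap in this ratio, with Drug_0120 highest and Drug_CN27 lowest. Transcript ratios say nothing of protein amounts, since IkB proteins are controlled largely by their breakdown.

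**Figure D3:**
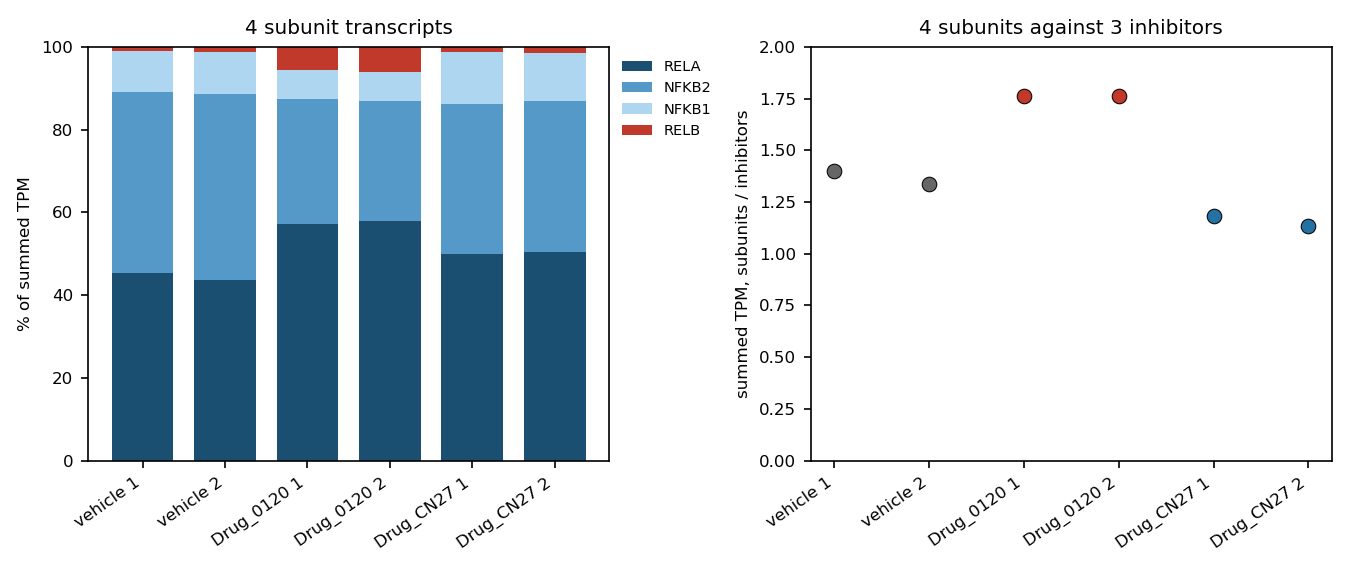
Share of each of the 4 subunit transcripts in their summed TPM, by library (stacked bars). Points give the summed TPM of the 4 subunits over that of the 3 inhibitors in each library. The ratio is 1.40 and 1.34 in vehicle, 1.76 and 1.76 with Drug_0120 and 1.18 and 1.14 with Drug_CN27.

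Genes whose pattern was most like that of NFKB1 and NFKBIA were taken by the smallest Euclidean distance over the 6 libraries, among 10777 tested genes with a mean of at least 5 TPM. For NFKB1 they were PRDX6 (distance 0.0615), CFAP298 (0.0717) and TBCA (0.0969). For NFKBIA they were STX4 (distance 0.0430), ATG2A (0.0799) and NAPA (0.109).

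Other genes of the Rel and IkB families were followed beside the members. Of 7 such genes, 5 were called higher and 1 lower with each compound, with medians of 0.76 for Drug_0120 and 0.54 for Drug_CN27, against -0.10 and 0.15 over all tested genes. Of all tested genes, 81.5% were called with Drug_0120 (36.0% higher) and 70.4% with Drug_CN27 (43.7% higher). NFKBIZ, which encodes the nuclear IkB-zeta that acts with NF-kB on inflammatory promoters, averaged 6.44 ± 0.619 TPM in vehicle, 95.1 ± 4.66 TPM in the Drug_0120 libraries and 31.1 ± 0.988 TPM with Drug_CN27. The 3 groups did not overlap, and its log2 changes were 3.69 ± 0.08 and 2.11 ± 0.08. REL, the c-Rel subunit gene, rose by 1.36 ± 0.16 and 0.68 ± 0.16. NFKBIL1, listed with the IkB-like genes, rose by 1.08 with Drug_0120, and NKIRAS1, a Ras-like protein that binds IkB, by 0.75 with Drug_CN27. BCL3, a nuclear IkB protein that binds the trimmed NFKB1 and NFKB2 subunits, changed by -0.53 and -0.35, but by -0.06 and not called with Drug_0120 after the GC correction, and by -0.15 and not called with Drug_CN27 after that correction with the replicate block (adjusted p = 0.0522).

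Upstream of the members, 18 of 25 receptor and adaptor genes were tested, and 8 were called higher and 6 lower with Drug_0120 against 8 higher and 2 lower with Drug_CN27, where 81.5% and 70.4% of all tested genes were called. With Drug_0120 the rises that the naming rule took were TNFRSF12A (1.48), the receptor of TWEAK, BIRC2 (1.47), the ubiquitin ligase cIAP1, and TRAF6 (1.45), an adaptor of interleukin-1 and Toll-like receptors. The falls were MYD88 (-1.80) and IRAK1 (-1.27), which act in the same receptor route as TRAF6, and TRAF2 (-0.90), which brings the cIAP ligases to tumour necrosis factor receptors. With Drug_CN27 they were TRAF6 (0.96), the death receptor TNFRSF10B (0.86), the tumour necrosis factor receptor TNFRSF1A (0.85) and TRAF2 (-0.93). IRAK1 at -0.17 passed with Drug_CN27 but was lost without any 1 of 5 libraries, all but Drug_CN27 replicate 2. Of 23 tested genes of kinases and ubiquitin machinery, 15 were called higher with each compound, and 6 were lower with Drug_0120 and 4 with Drug_CN27. Over all tested genes, 36.0% and 43.7% were called higher and 45.5% and 26.6% lower. With Drug_0120 these included TAB3 (1.52), an adaptor of the TAK1 kinase, CYLD (1.45), a deubiquitinase that restrains NF-kB, and TANK (1.40), with SHARPIN (-0.79), TAB1 (-0.55) and RNF31 (-0.38) among the falls. With Drug_CN27 they included RBCK1 (1.44), a partner of RNF31 and SHARPIN in the linear ubiquitin ligase, BTRC (0.90), which marks IkB for destruction, and TAX1BP1 (0.83), with MAP3K14 (-0.94), the kinase of the noncanonical branch, and TNIP2 (-0.34, or -0.22 without Drug_CN27 replicate 1) among the falls. RNF31 changed by -0.18 with Drug_CN27 and was not called without any 1 of the same 5 libraries. With Drug_0120, RNF31 was at -0.09 and not called after the GC correction. The largest fall of this list with each compound was that of IKBKE (-2.33 with Drug_0120 and -1.38 with Drug_CN27). Its mean of 3.85 TPM kept it out of the naming rule, and it was named after its values were seen.

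Among 37 other NF-kB target genes, 15 were tested, with 6 higher and 7 lower for Drug_0120 and 4 higher and 5 lower for Drug_CN27, and medians of -0.03 and -0.02. The shares called over all tested genes were again 81.5% and 70.4%. GADD45B, a stress-induced gene that restrains JNK signalling, was at 605 and 672 TPM with Drug_0120, against 24.9 and 25.1 TPM in vehicle and 23.5 and 26.1 TPM with Drug_CN27. Only the Drug_0120 libraries stood apart, with a log2 change of 4.62 ± 0.08. IER3, an early stress response gene, rose by 0.89 with Drug_0120 and changed by -0.80 with Drug_CN27. TNFAIP2 changed by -1.85 and -0.60, and SOD2, the mitochondrial superoxide dismutase, by -1.12 with Drug_0120. The table holds a second entry for SOD2, so its value is uncertain. BCL2L1, an inhibitor of cell death, changed by -0.50 with Drug_0120 and by 0.39 with Drug_CN27; the latter was lost without Drug_CN27 replicate 2 and under median-of-ratios scaling or quantile normalization, and the former was -0.31 without Drug_0120 replicate 2. CFLAR, which blocks caspase-8 activation, rose by 0.79 with Drug_CN27.

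**Figure D4:**
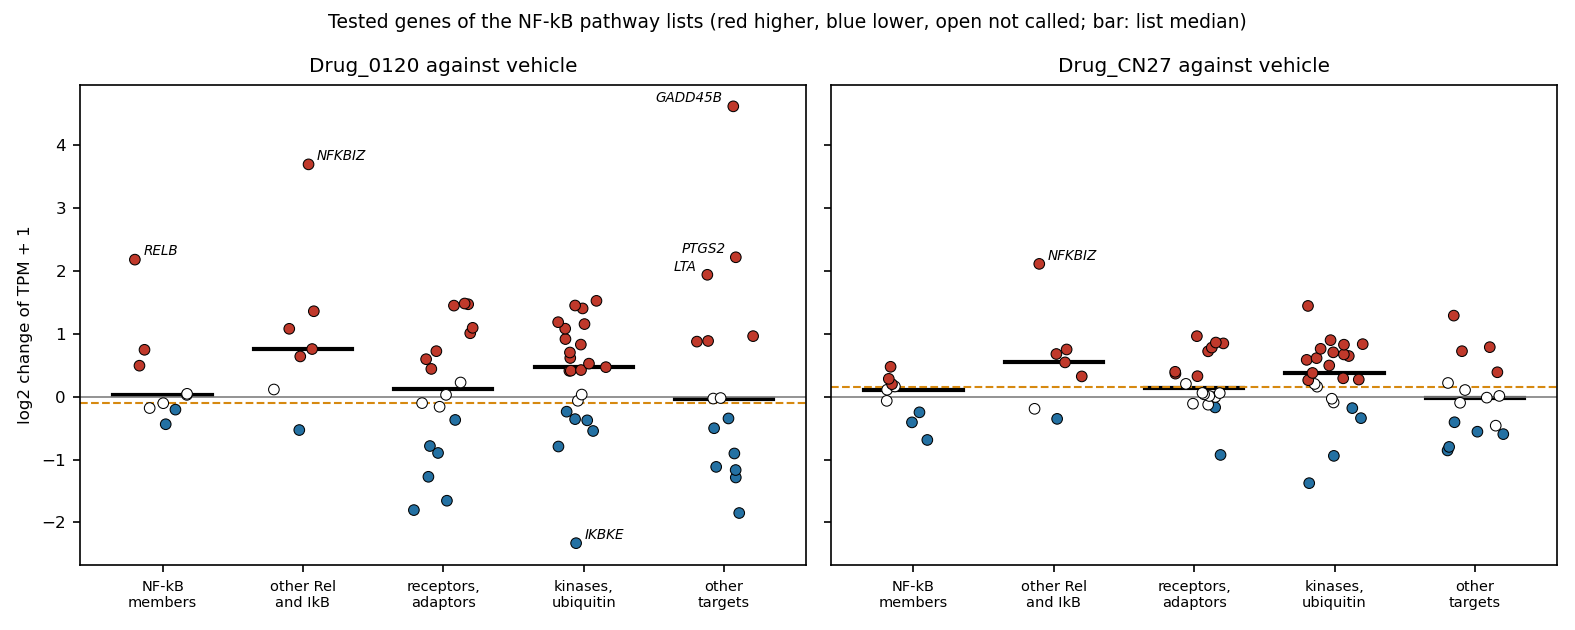
Change on the log2(TPM + 1) scale of each tested gene of 5 NF-kB gene lists against vehicle (red called higher, blue called lower, open not called, bars are list medians, dashed lines are the median of all tested genes). GADD45B at 4.62 and NFKBIZ at 3.69 with Drug_0120 lie above RELB at 2.18, as does PTGS2 at 2.22. PTGS2 and TLR6 reached 1 TPM only with Drug_0120 and LTA only with the compounds, so these genes entered the test only through groups where they were high. The labels of PTGS2, LTA and IKBKE were added after their values were seen.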

How the data were processed

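Gene expression was measured by RNA-seq of polyadenylated RNA in 6 libraries of 22Rv1 cells, 2 per group, grouped by the labels. Expression was deposited by the authors as TPM per gene. The tools STAR and StringTie and the build hg19 come per the submitters' processing notes; versions, annotation, filters and strand setting were not given in the sources used here. Of 20315 rows, 18 that repeat a pseudoautosomal gene were dropped. SOD2 had 2 entries, and the row with the higher mean was used. TPM keeps no depth, so no counting intervals are given.

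Values were analysed as log2(TPM + 1). A gene was tested if 2 or more libraries reached 1 TPM, which kept 13606 genes for limma 3.58.1 under R 4.3.3 (mean-variance trend, 6 libraries in a single fit, no replicate block), with Benjamini-Hochberg adjustment over all of them, a threshold of 0.05 and 95% intervals. The GC correction used GENCODE release 29 transcripts. The fit was tested on simulated data with few changed genes and no shift in scaling. That test does not cover changes as broad as those here. The members and gene lists were chosen with earlier results of these data known. A further prostate line marker is not reported here. Beyond the members, the named genes were the up to 3 largest rises and 3 largest falls per list against vehicle, among called genes with a mean of at least 5 TPM and groups that did not overlap. Alternatives were pseudocounts of 0.1 and 0.5, filters, 3 scalings, no trend, a replicate block, the GC correction and each library left out.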

Additional observations from a re-analysis of the deposited data

How the results depend on the processing

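RELA and RELB with Drug_0120, NFKBIA and TNFAIP3 with Drug_CN27, and RELA, RELB and BIRC3 between the compounds kept direction and call in every alternative that could test them; TNFAIP3 entered the test only through the vehicle libraries, where it is high, so its fall gains no support from this. RELB with Drug_0120 ranged from 2.10 to 2.65, and RELA from 0.71 to 1.09. Of 453 member values under alternatives, 377 kept direction and call, 32 gained and 25 lost the call, and 19 changed sign; for other named genes 655 of 680 kept both. Where values moved, the cause was not tested.

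With Drug_0120, the members called lower numbered 1 with a mean of at least 5 TPM (which drops TNFAIP3), 1 under median-of-ratios scaling, 1 with table sums set equal, 0 under quantile normalization (0 by limma at an unadjusted p under 0.05 too) and 1 to 2 without single libraries. All-gene lower calls with Drug_0120 were 5641 under median-of-ratios scaling, 5340 with table sums set equal and 5289 under quantile normalization, against 6189 in the main test. The members called higher with Drug_0120 numbered 5 with table sums set equal, 5 after the GC correction and 5 with the replicate block and GC correction. All-gene higher calls were 5823, 4784 and 4866 there, against 4903 in the main test. With Drug_CN27, members called higher numbered 1 under median-of-ratios scaling, 5 after the GC correction, 5 with the replicate block and GC correction and 1 to 3 without single libraries. The members lower with Drug_CN27 numbered 1 with the replicate block and GC correction and 1 to 3 without single libraries. All-gene higher calls with Drug_CN27 were 4503 under median-of-ratios scaling, 6102 after the GC correction and 6244 with the block and GC correction, against 5948 in the main test. All-gene lower calls with the block and GC correction were 3946, against 3624. Between the compounds, members called higher numbered 0 under median-of-ratios scaling (0 by limma at an unadjusted p under 0.05) and 1 under quantile normalization. All-gene higher calls were 5101 and 5014 there, against 7034 in the main test. Members called lower between the compounds numbered 5 with no filter, and 6 under median-of-ratios scaling, table sums set equal, quantile normalization, the GC correction and the replicate block and GC correction. All-gene lower calls rose from 3200 to 5254 under median-of-ratios scaling, 4307 with table sums set equal and 5222 under quantile normalization. They changed little with the GC correction (3245) and with the block and GC correction (3356), which covered 13504 genes.

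Signs changed as follows. NFKB1 with Drug_0120 was 0.011 under median-of-ratios scaling, 0.068 with table sums set equal and 0.018 under quantile normalization. NFKB2 with Drug_0120 was 0.17, and NFKBIE 0.16, after the GC correction with or without the replicate block, and NFKBIE was 0.0017 under quantile normalization. With Drug_CN27, NFKBIB was -0.066 under median-of-ratios scaling, RELB -0.023 under quantile normalization and IRAK1 0.018 after the GC correction with or without the block. Between the compounds, NFKBIB was -0.23 under median-of-ratios scaling, -0.11 with table sums set equal, -0.12 under quantile normalization and -0.16 after the GC correction with or without the block. Without single libraries, NFKBIB ranged from -0.050 to 0.14 and NFKBIA from -0.022 to 0.078 with Drug_0120. Between the compounds NFKBIB ranged from -0.038 to 0.17 and NFKB2 from -0.088 to 0.0014. A group left with 1 library is assumed to vary like the others.

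Same-numbered libraries deviated together only weakly (r = 0.164, 0.150 and 0.110 for the 3 pairs of groups), and the labels give no shared source. With the replicate block, the member counts were 3 higher and 2 lower with Drug_0120, 3 and 3 with Drug_CN27, and 2 and 3 between the compounds, as without it, and 11526, 10284 and 10894 genes were called in all against 11092, 9572 and 10234.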

Other observations

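Several secreted NF-kB targets were at or near 0 in these cells. CXCL6 and CXCL10, chemokines that draw neutrophils and T cells, were at 0 in all 6 libraries. The following genes were chosen after their values were seen. CXCL2, a neutrophil chemokine, was at 0 in both vehicle libraries, at 1.11 and 0.828 TPM with Drug_0120 and at 0.206 and 0.246 TPM with Drug_CN27. TNF, the cytokine that activates the canonical branch, was at 0.789 and 1.11 TPM with Drug_0120, against 0.284 and 0 TPM in vehicle and 0.0860 and 0.148 TPM with Drug_CN27. IL6 was at 0 in vehicle and with Drug_CN27 and at 0.182 and 0.247 TPM with Drug_0120. For these 3 genes, as for CXCL8, both Drug_0120 libraries were above the other 4. None of them passed the filter on low values, and no fold is given against values at 0. Among the other genes of that target list below the filter, CCL5, CSF2, IL32 and LTB showed this order too. CXCL1, CXCL3, CXCL5, CCL2, CCL20, IL1A, IL1B, VCAM1, BCL2A1, CD83, PLAU and LCN2 did not. MMP9 (0.172 and 0.175 TPM) and CSF1 (0.853 and 0.468 TPM) were lower in both Drug_0120 libraries than in the other 4.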
